A study of Mus musculus with 8 samples.

Results

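The genes that carry fatty acids into muscle fibres, store them and burn them in mitochondria were followed in mouse extensor digitorum longus (EDL), which is a hindlimb muscle made mostly of fast fibres. They are 34 named genes, taken as a fixed list of symbols and found on the array through the RefSeq accession of each probe. All 34 had a probe, 43 probes in all, and all 34 were among the 12737 named genes tested. The knockout group was 4 male C57BL/6 mice called PCKO, with a tamoxifen-inducible knockout of Ep300 and Crebbp, the genes of the acetyltransferases p300 and CBP, in skeletal muscle; their genotype label gives only CBP. The comparison group was 4 male C57BL/6 mice labelled wildtype (WT). The treatment text, the same for all 8 samples, gives tamoxifen by gavage for 5 days, begun at 13 to 15 weeks of age, and muscle collection 1 day after the last dose and after a 4 h fast. The promoter that drives the recombinase, and whether the WT mice carried it or the floxed alleles, are not given in the sources used here.

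Long-chain fatty acids reach a muscle fibre as free acids or are released from circulating triglyceride by lipoprotein lipase, cross the membrane with the help of CD36 and transport proteins, and are bound by carrier proteins and activated to acyl-CoA. Acyl-CoA is either stored as triglyceride in lipid droplets or passed into mitochondria through the carnitine shuttle. There each turn of beta-oxidation takes a dehydrogenation, a hydration, another dehydrogenation and a thiolytic cleavage, and the electrons enter the respiratory chain through the electron transfer flavoprotein. Many of these genes are known targets of the PPAR and ERR nuclear receptors and respond to fasting and exercise.

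Each sample had its own single-colour Agilent array. The labels number the samples 1 to 4 in each group without saying that each is a separate mouse, as is taken here, so p-values measure the spread between these samples. On every array 24202 to 25670 probes (43.5% to 46.1%) were brighter than background by the scanner software's test, no spot was saturated, and each of the 34 genes was well above background on all 8 arrays at its brightest probe. A level is the log2 processed intensity of a gene's brightest probe minus the 75th percentile of its array, so a level says nothing of the absolute amount and is not compared between genes. Differences are in log2 units, the PCKO mean less the WT mean, given ± the standard error from limma (4 mice per group). Adjusted p is Benjamini-Hochberg over all 12737 genes, and a gene was called at 0.05. The muscle genes Acta1, Ckm, Mb, Myh1, Myh4, Tnnt3, Pvalb and Atp2a1 were well above background on every array. All 8 were lower in PCKO mice, against 32.7% of all genes, with a median difference of -3.08. With quantile normalization 6 were lower (median -2.58), against 29.0% of all genes. Centred on spiked-in RNA 6 were lower (median -2.40), against 9.44%, and with another background correction 7, against 28.5%. The part of this difference in the results was not tested. Ep300 differed by -1.44 ± 0.11 and Crebbp by -0.70 ± 0.11, each at 1 probe whose position relative to the deleted part is not known here, and Crebbp was not called when centred on spiked-in RNA (-0.03) or with another background correction (-0.41).

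With levels set to the array's 75th percentile, most fatty acid genes fell in PCKO muscle, though 5 did so when arrays were centred on spiked-in RNA, which moved the median of all genes up as well. Lower were 23 of the 34 (67.6%), while 32.7% of all genes tested were lower. In either direction 26 of the 34 were called, against 71.1% of all genes. Higher were 3 (8.82%), against 38.3% of all genes, and 8 did not pass the threshold. The median difference of the 34 was -0.62, against 0.06 over all genes. At 2-fold or more 11 members were lower (13.9% of all genes were) and 1 was higher (11.7% of all genes were). All 4 PCKO values lay below all 4 WT values for 23 members, against 29.7% of all genes, and above them for 2, against 36.1%. In whole muscle, fewer cells of a type and less RNA per cell cannot be told apart.

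**Figure D1:**
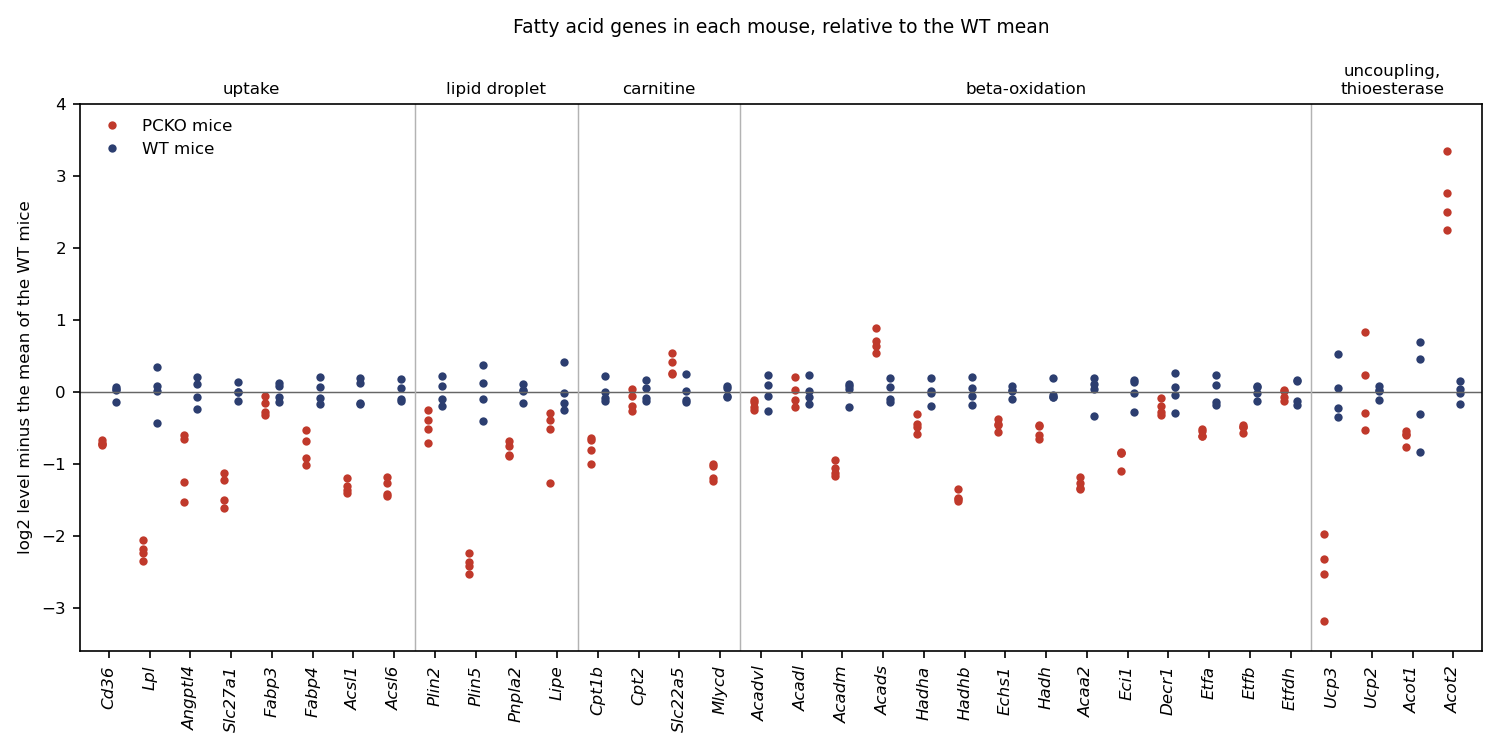
Level of each of the 34 genes in each mouse, on the log2 scale, relative to the mean of the 4 WT mice for that gene. Red points are the 4 PCKO mice and blue points the 4 WT mice. Lpl, Plin5 and Ucp3 lie more than 1 unit below every WT mouse, Acot2 lies above, and Acadl and Etfdh overlap.

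The counts of lower and higher genes depended on the scaling. The median of the 34 lay below that of all genes by the 75th percentile and after quantile normalization. Against the signal of 7 probes for control transcripts spiked in during labelling, the 75th percentile of an array was 0.68 log2 units higher in PCKO mice (-2.80 ± 0.34 in PCKO and -3.48 ± 0.30 in WT, SD, n = 4 each), with p = 0.029, the smallest that an exact two-sided permutation test of 4 against 4 allows. Centring on the spike-ins added this shift to every gene, after which 5 members (14.7%) were lower and 4 (11.8%) higher. Of all genes 1202 (9.44%) were lower and 6764 (53.1%) higher. The median of the 34 was then 0.05, against 0.73 over all genes. Since the shift is the same for every gene, it leaves the gap between these medians unchanged, here and for each step below. After quantile normalization 19 members (55.9%) were lower and 6 (17.6%) higher, against 29.0% and 43.3% of all genes. Their median was -0.47, against 0.15 over all genes. Under each of the 19 other settings run, 7 members kept both direction and call wherever they had a value: Lpl, Slc27a1, Plin5, Hadhb and Ucp3 lower, and Acads and Acot2 higher. Hadhb and Ucp3 have no value in the deposited series table. Within row 1 of the slide alone (2 mice per group) 22 members (64.7%) were lower and 2 (5.88%) higher, against 24.4% and 28.1% of all genes. Within row 2 alone 19 (55.9%) were lower and 2 (5.88%) higher, against 24.4% and 27.3% of all genes.

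**Figure D2:**
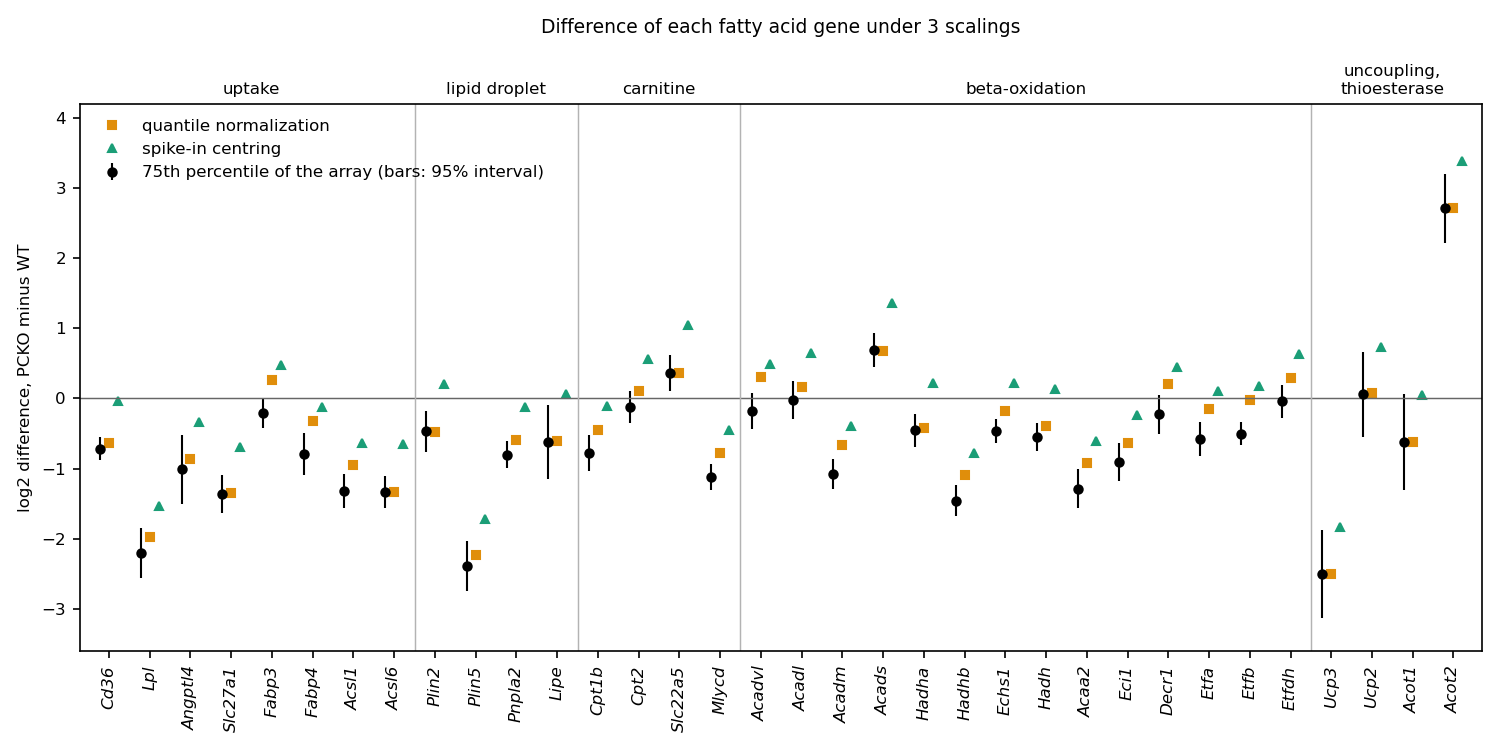
Log2 difference of each gene, PCKO minus WT, under 3 scalings of the arrays: the 75th percentile (black circles, with bars for the 95% interval of the fit), quantile normalization (orange squares) and centring on the spike-ins (green triangles). The green triangles sit 0.68 above the black circles, which puts Etfa, Etfb and Echs1 above 0 and leaves Lpl, Plin5 and Ucp3 below -1.5.

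Fatty acid uptake and activation was the step with the lowest median. Of its 8 genes 7 (87.5%) were lower and none higher, against 32.7% and 38.3% of all genes, with a median difference of -1.16. Centred on the spike-ins the median was -0.49, against 0.73 over all genes. There 2 genes (25%) were lower, against 9.44% of all genes. Lpl, the lipase that frees fatty acids from circulating triglyceride, had levels of 4.53, 4.40, 4.34 and 4.23 in PCKO mice, against 6.59, 6.92, 6.15 and 6.67 in WT mice. The groups lay far apart, a difference of -2.21 ± 0.16 or 4.61-fold (adjusted p = 3.8e-06), and a second Lpl probe gave -2.26 ± 0.18. Angptl4, a secreted inhibitor of that lipase, was at 3.53, 4.40, 4.45 and 3.80 in PCKO mice, against 4.81, 5.26, 4.99 and 5.17 in WT mice, so that the enzyme and its inhibitor were both lower. Angptl4 differed by -1.01 ± 0.22 (adjusted p = 0.0027), a call lost with spike-in centring (-0.33, adjusted p = 0.34).

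At the cell membrane, Slc27a1, the fatty acid transport protein FATP1, had levels of 1.72, 2.09, 1.61 and 1.99 in PCKO mice, against 3.21, 3.21, 3.09 and 3.35 in WT mice (-1.37 ± 0.12, adjusted p = 1.4e-05). Cd36, the fatty acid translocase, was also lower. Its levels were 3.64, 3.65, 3.71 and 3.67 in PCKO mice, against 4.41, 4.45, 4.25 and 4.43 in WT mice (-0.72 ± 0.07, adjusted p = 3.0e-05). Centred on the spike-ins, Cd36 differed by -0.04 and did not pass. Of the carrier proteins inside the cell, Fabp4 passed and Fabp3 did not. Fabp3, the muscle and heart fatty acid-binding protein, was at 8.08, 7.94, 8.16 and 7.91 in PCKO mice, against 8.32, 8.15, 8.09 and 8.36 in WT mice. These values overlapped (-0.21 ± 0.09, 95% interval -0.42 to 0.01, adjusted p = 0.077), the second probe gave -0.18 ± 0.10, and it was called higher under quantile normalization (0.26, adjusted p = 0.022) and likewise from the deposited series table (0.30, adjusted p = 0.013). Fabp4, the carrier of adipocytes and capillary endothelium, was at 7.09, 7.58, 7.42 and 7.19 in PCKO mice, against 8.02, 8.31, 8.18 and 7.94 in WT mice (-0.79 ± 0.13, adjusted p = 0.00060), and did not pass after quantile normalization (-0.33) or when centred on the spike-ins (-0.12).

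The acyl-CoA synthetases, which trap fatty acids by activating them, both fell. Acsl1, the main muscle form, was at 5.77, 5.98, 5.86 and 5.81 in PCKO mice, against 7.02, 7.37, 7.00 and 7.30 in WT mice (-1.32 ± 0.11, adjusted p = 7.9e-06). Acsl6 was at 0.89, 0.63, 0.66 and 0.81 in PCKO mice, against 2.13, 1.98, 1.94 and 2.26 in WT mice (-1.33 ± 0.10, adjusted p = 5.3e-06). With spike-in centring both were just short of the threshold (-0.64 and -0.66). Of 10 further genes of uptake and activation, 6 (60%) were lower and 1 (10%) higher, against 32.7% and 38.3% of all genes. Vldlr, a lipoprotein receptor, fell most (-2.17 ± 0.12, and -2.70 at its other probe), followed by Acsl3, another synthetase (-1.41 ± 0.16). Acsl5, a synthetase of mitochondria and endoplasmic reticulum, was the riser (0.61 ± 0.10), a call lost with another background correction (0.24, adjusted p = 0.070).

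Uptake genes are also expressed outside the fibre, in fat cells and in the capillary wall. Of 6 adipocyte markers 5 were tested and none passed (Adipoq -0.69 ± 0.56, Cfd -0.67 ± 0.52). The log2 of their summed scaled intensities, in which the brightest probes weigh most, was taken for each mouse. It ran between 5.36 and 7.47 in PCKO mice and between 6.14 and 8.14 in WT mice, so the groups overlapped. All 5 were well above background on every array, and Lep was too dim to be tested. Of 10 endothelial markers 9 (90%) were lower and none higher, against 32.7% and 38.3% of all genes. With spike-in centring 1 (10%) was lower, near the 9.44% of all genes. The log2 of the summed endothelial intensities was 6.86 to 7.19 in PCKO mice and 7.67 to 8.02 in WT mice. Macrophage markers were lower in 6 of 7 cases (3.86 to 4.66 in PCKO mice and 5.03 to 5.39 in WT mice) and fibroblast markers in 6 of 6 (7.73 to 8.19 in PCKO mice and 8.74 to 9.06 in WT mice). Of all genes 32.7% were lower. With spike-in centring 1 of the 7 macrophage markers (14.3%) and 4 of the 6 fibroblast markers (66.7%) were lower, against 9.44% of all genes. The part of these cell types in the changes of Lpl, Cd36 and Fabp4 was not tested.

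On the lipid droplet all 4 genes (100%) fell, against 32.7% of all genes, with a median of -0.71. With spike-in centring the median was -0.03, against 0.73 over all genes. Only Plin5 (25% of the 4) was then called lower, against 9.44% of all genes. Plin2 (0.21) and Lipe (0.06) had the opposite sign. Plin5, the perilipin that ties droplets to mitochondria in oxidative tissue, was at 3.39, 3.20, 3.10 and 3.26 in PCKO mice, against 5.53, 6.00, 5.23 and 5.75 in WT mice. This was a 5.24-fold fall with well separated groups (-2.39 ± 0.16, adjusted p = 2.6e-06). Plin2, the perilipin found in most cells, was at 1.20, 1.32, 1.46 and 1.01 in PCKO mice, against 1.62, 1.93, 1.80 and 1.52 in WT mice, a smaller fall (-0.47 ± 0.13, adjusted p = 0.0090) with groups that lay next to each other.

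The lipases that empty the droplet were lower too. Pnpla2, the triglyceride lipase ATGL, was at 4.51, 4.64, 4.50 and 4.71 in PCKO mice, against 5.42, 5.40, 5.50 and 5.24 in WT mice (-0.80 ± 0.09, adjusted p = 4.7e-05). Lipe, hormone-sensitive lipase, was dim, at -2.23, -2.01, -2.98 and -2.10 in PCKO mice, against -1.87, -1.73, -1.29 and -1.96 in WT mice. Its call was marginal (-0.62 ± 0.23, adjusted p = 0.038) and was lost without any one of PCKO replicates 1 and 3 and WT replicates 1, 2 and 3 (adjusted p of 0.053 to 0.095, with a difference of -0.40 without PCKO replicate 3). Lipe also lost its call with replicate number as a block (adjusted p = 0.087), with slide row as a block (adjusted p = 0.050, just over the threshold) and under quantile normalization (adjusted p = 0.0505), which left 3 of the 4 droplet genes lower in each case.

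Other droplet genes moved in both directions. Of 13, 9 (69.2%) were lower and 4 (30.8%) higher, none missing the threshold, against 32.7% and 38.3% of all genes. Plin4, a perilipin of muscle and fat, had levels of 3.95, 4.53, 4.03 and 4.26 in PCKO mice, against 8.76, 8.79, 8.83 and 8.66 in WT mice (-4.57 ± 0.13, adjusted p = 2.7e-08). Fitm1, a muscle protein that partitions triglyceride into droplets, differed by -3.28 ± 0.09. Among the risers, Dgat1, which makes triglyceride, was higher by 0.82 ± 0.09 and Hilpda, an inhibitor of ATGL, by 0.74 ± 0.13 (0.72 at its other probe). With spike-in centring the same list had 6 lower (46.2%) and 4 higher (30.8%) genes, against 9.44% and 53.1% of all genes.

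The carnitine step was mixed. Of 4 genes 2 (50%) fell, 1 (25%) rose and 1 did not pass, where 32.7% of all genes fell and 38.3% rose. The median was -0.45, against 0.06 over all genes. With spike-in centring the medians were 0.22 for the step and 0.73 over all genes. Mlycd, malonyl-CoA decarboxylase, which removes the inhibitor of CPT1, was at 5.68, 5.63, 5.83 and 5.86 in PCKO mice, against 6.81, 6.96, 6.80 and 6.92 in WT mice (-1.12 ± 0.08, adjusted p = 4.9e-06). Centred on the spike-ins, Mlycd did not pass (-0.44, adjusted p = 0.20). Cpt1b, the muscle form of the outer carnitine palmitoyltransferase and the gate of mitochondrial entry, was at 6.02, 5.67, 5.87 and 6.00 in PCKO mice, against 6.58, 6.66, 6.55 and 6.89 in WT mice. The difference was -0.78 ± 0.11 (adjusted p = 0.00026), with a difference of -0.77 at the other probe, but the gene did not pass when centred on the spike-ins (-0.11).

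Cpt2, the inner-membrane partner of CPT1, had levels of 5.04, 4.97, 5.28 and 5.18 in PCKO mice, against 5.15, 5.29, 5.11 and 5.40 in WT mice. The groups overlapped (-0.12 ± 0.10, 95% interval -0.35 to 0.11), and the sign turned under quantile normalization (0.11). Slc22a5, the carnitine transporter OCTN2 of the plasma membrane, went the other way, at 1.22, 0.93, 0.94 and 1.10 in PCKO mice, against 0.54, 0.93, 0.56 and 0.69 in WT mice (0.37 ± 0.11, adjusted p = 0.017). WT replicate 2 reached the PCKO range, and in either row of the slide alone the call was lost (0.34 and 0.39). Of 7 further genes of this step 2 (28.6%) were lower and 3 (42.9%) higher, near the 32.7% and 38.3% of all genes. Cpt1a, the CPT1 form of liver and many other tissues, rose by 0.88 ± 0.12 (0.65 at its other probe), while Crat, which makes acetylcarnitine, was lower (-1.12 ± 0.12). Acacb, the carboxylase whose malonyl-CoA restrains CPT1, was lower (-0.86 ± 0.12, and -1.05 at its other probe). Slc22a4, a transporter related to Slc22a5, was higher (0.78 ± 0.19), a call also lost in either row of the slide alone (0.68 and 0.88). The calls of Crat (-0.44) and Acacb (-0.19) were lost with spike-in centring.

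Among the 14 genes of beta-oxidation, 9 (64.3%) fell, 1 (7.14%) rose and 4 did not pass, where 32.7% of all genes fell and 38.3% rose. The median was -0.48, against 0.06 over all genes. With spike-in centring the medians were 0.19 for the step and 0.73 over all genes. The calls were then Hadhb lower and Acads higher (7.14% each), where 9.44% of all genes were lower and 53.1% higher. The acyl-CoA dehydrogenases, which open each turn, gave mixed calls. Acadvl, for very long chains, was at 8.23, 8.10, 8.14 and 8.20 in PCKO mice, against 8.29, 8.44, 8.07 and 8.59 in WT mice (-0.18 ± 0.11, 95% interval -0.43 to 0.07). Acadl, for long chains, was at 4.69, 4.82, 5.00 and 4.58 in PCKO mice, against 4.72, 4.81, 4.63 and 5.03 in WT mice (-0.02 ± 0.12, 95% interval -0.30 to 0.25). Neither passed, and Acadvl was called lower without WT replicate 3 (-0.27, adjusted p = 0.034) and called higher under quantile normalization (0.30, adjusted p = 0.037) and likewise from the deposited series table (0.38, adjusted p = 0.011).

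Acadm, the medium-chain dehydrogenase, was clearly separated, at 6.57, 6.46, 6.35 and 6.38 in PCKO mice, against 7.54, 7.59, 7.30 and 7.61 in WT mice (-1.07 ± 0.09, adjusted p = 1.4e-05). Acads, the short-chain dehydrogenase, rose, at 1.64, 1.39, 1.46 and 1.30 in PCKO mice, against 0.82, 0.66, 0.94 and 0.61 in WT mice (0.69 ± 0.11, adjusted p = 0.00040). So within this enzyme family 1 member was lower, 1 higher and 2 did not pass. The ratio of Acadvl to Acadm within each array was higher in every PCKO mouse than in any WT mouse, by 0.89 log2 units.

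The trifunctional protein, which carries out the later reactions on long chains, is built of an alpha subunit (Hadha) and a beta subunit (Hadhb). Hadhb was at 6.00, 5.87, 5.83 and 5.87 in PCKO mice, against 7.29, 7.40, 7.16 and 7.55 in WT mice, the largest fall of the beta-oxidation genes (-1.46 ± 0.10, 2.75-fold, adjusted p = 2.6e-06). Hadha fell less, at 2.68, 2.53, 2.64 and 2.81 in PCKO mice, against 3.32, 3.11, 2.93 and 3.14 in WT mice (-0.46 ± 0.10, adjusted p = 0.0033), although it stood at 0.22 when centred on the spike-ins. The probes thus showed unequal change of the subunits, a log2 ratio of alpha to beta that was 1.0 higher in PCKO mice.

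The enzymes of shorter chains and of unsaturated fatty acids were mostly lower. Acaa2, the mitochondrial thiolase, was read by 10 spots per array, whose SD within an array was 0.02 to 0.11, and was at 6.02, 6.11, 5.96 and 5.95 in PCKO mice, against 7.34, 7.49, 6.95 and 7.40 in WT mice (-1.29 ± 0.12, adjusted p = 2.0e-05). Eci1, an enoyl-CoA isomerase, was at 5.05, 5.31, 5.31 and 5.32 in PCKO mice, against 6.13, 6.32, 5.88 and 6.29 in WT mice (-0.91 ± 0.12, adjusted p = 0.00014). Both falls exceeded the spread within either group. Hadh, the short-chain hydroxyacyl-CoA dehydrogenase, differed by -0.55 ± 0.09 (4.27 to 4.46 in PCKO mice and 4.85 to 5.11 in WT mice). Echs1, the short-chain hydratase, differed by -0.46 ± 0.07 (5.50 to 5.69 in PCKO mice and 5.96 to 6.14 in WT mice). Both passed but turned to 0.13 and 0.21 with spike-in centring. Decr1, the dienoyl-CoA reductase, did not pass at its brighter probe (-0.22 ± 0.12, 95% interval -0.50 to 0.05) but did at its dimmer one (-0.76 ± 0.09), so its probes disagreed. Without WT replicate 3 the brighter probe was called lower (-0.32, adjusted p = 0.026).

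Electrons leave through the electron transfer flavoprotein (Etfa and Etfb) and its dehydrogenase (Etfdh). Etfa was at 6.81, 6.73, 6.84 and 6.74 in PCKO mice, against 7.21, 7.59, 7.16 and 7.45 in WT mice (-0.58 ± 0.11, adjusted p = 0.0012), and its other probe gave -0.44 ± 0.21, which did not pass. Etfb was at 8.05, 7.97, 8.06 and 8.09 in PCKO mice, against 8.52, 8.62, 8.42 and 8.61 in WT mice (-0.50 ± 0.07, adjusted p = 0.00031). Both subunits were called, but neither passed under quantile normalization (-0.15 and -0.02), and both were above 0 with spike-in centring (0.10 and 0.17). Etfdh, which hands the electrons to ubiquinone, was at 6.37, 6.28, 6.23 and 6.37 in PCKO mice, against 6.22, 6.51, 6.17 and 6.52 in WT mice (-0.04 ± 0.10, 95% interval -0.27 to 0.19), and was called higher under quantile normalization (0.29, adjusted p = 0.024) and likewise from the deposited series table (0.34, adjusted p = 0.0059).

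Of 7 further mitochondrial oxidation genes 3 (42.9%) were lower and 1 (14.3%) higher, all by less than 1 log2 unit. Of all genes 32.7% were lower and 38.3% higher. Only 1 (14.3%) was lower without WT replicate 2, WT replicate 4 or PCKO replicate 4 and with a replicate block. Of all genes 30.9% to 32.7% were lower in those runs. Under quantile normalization 1 (14.3%) was lower and 3 (42.9%) higher, against 29.0% and 43.3% of all genes. Acad10 differed by -0.56 ± 0.12 and Hsd17b10 by 0.45 ± 0.07, Acad10 standing at 0.11 with spike-in centring. Acad9 was marginal (-0.22 ± 0.08, adjusted p = 0.037), missing the threshold in 7 of the 8 runs that left out 1 mouse, with a replicate block (adjusted p = 0.067), under quantile normalization (adjusted p = 0.073) and by the values of the deposited series table (adjusted p = 0.058), and it was 0.46 with spike-in centring. Peroxisomes shorten very long chains before they reach mitochondria. Of 12 genes of peroxisomal oxidation 1 (8.33%) was lower and 4 (33.3%) higher, against 32.7% and 38.3% of all genes. Their median was 0.15, against 0.06 over all genes. With spike-in centring the median was 0.83, against 0.73 over all genes. The count of higher genes was 2 (16.7%) without WT replicate 1 or PCKO replicate 4 and with a replicate block. Of all genes 36.0% to 37.6% were higher in those runs. The count was 7 (58.3%) under quantile normalization, against 43.3% of all genes. Decr2, the peroxisomal counterpart of Decr1, was higher by 1.35 ± 0.09. Acox3, a branched-chain acyl-CoA oxidase, was higher by 0.93 ± 0.08 at its brightest probe and not at its other (-0.39 ± 0.19), nor as the mean of both (0.27, adjusted p = 0.059). The 1 lower gene was Abcd2, a peroxisomal acyl-CoA importer (-2.52 ± 0.33), called also at -1.31 from the deposited series table and at -1.20 with normexp background correction.

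**Figure D3:**
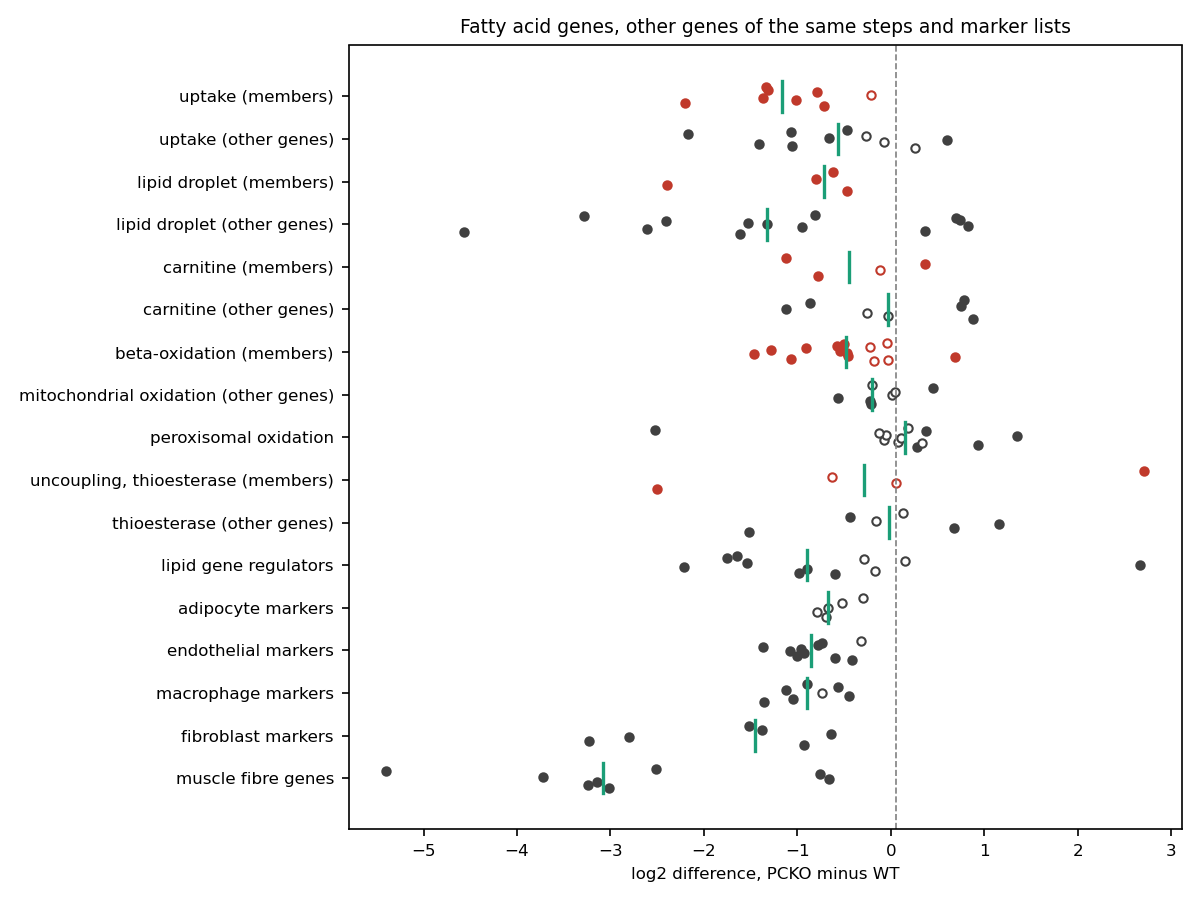
Log2 difference, PCKO minus WT, of the 34 genes by step (red) and of other genes of the same steps, regulators and marker lists (grey). Filled points passed an adjusted p of 0.05 and open points did not, green bars are list medians, and the dashed line is the median of all genes tested (0.06). The muscle fibre genes lie lowest, with a median of -3.08, while the peroxisomal list lies around 0.15.

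The uncoupling proteins and thioesterases held both extremes of the 34 genes. Of 4 genes 1 (25%) was lower, 1 (25%) higher and 2 did not pass, where 32.7% of all genes were lower and 38.3% higher. The median was -0.28, against 0.06 over all genes. With spike-in centring the medians were 0.39 for the step and 0.73 over all genes. Ucp3, the uncoupling protein of skeletal muscle, was at -0.06, 0.14, 0.48 and -0.72 in PCKO mice, against 2.25, 2.52, 2.11 and 2.99 in WT mice. It was 5.67-fold lower (-2.50 ± 0.27, adjusted p = 5.3e-05), and its other probe gave -3.78 ± 0.16. Ucp2, the widely expressed uncoupling protein, was at -1.60, -1.07, -0.46 and -1.83 in PCKO mice, against -1.27, -1.41, -1.29 and -1.21 in WT mice. Its PCKO values lay on both sides of the WT values (0.06 ± 0.26, 95% interval -0.55 to 0.66), their SD of 0.61 was the largest of the 34 genes among PCKO mice, and with spike-in centring it was called higher (0.73, adjusted p = 0.030).

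Acot2, the mitochondrial acyl-CoA thioesterase, was at 1.91, 2.42, 3.01 and 2.16 in PCKO mice, against -0.50, -0.18, -0.30 and -0.36 in WT mice, the largest rise of the list (2.71 ± 0.21, 6.55-fold, adjusted p = 7.4e-06). Acot1, its cytosolic relative, was at 1.74, 1.69, 1.69 and 1.52 in PCKO mice, against 1.97, 2.74, 1.45 and 2.97 in WT mice. The WT mice spread widely (SD 0.70, against 0.09 in PCKO mice), the groups overlapped and the difference did not pass (-0.62 ± 0.30, 95% interval -1.31 to 0.07), although without WT replicate 3 it did (-0.90, adjusted p = 0.0076). The proteins are close relatives and the probe sequences were not used here, so signal shared between these genes was not separated. Of 6 further thioesterases, Acot9 (1.16 ± 0.11) and Acot8 (0.67 ± 0.09) were higher and Acot7 (-1.51 ± 0.14) and Acot13 (-0.43 ± 0.10) lower, the last at 0.03 after quantile normalization and 0.24 once centred on the spike-ins. The shares lower and higher were 33.3% each, near the 32.7% and 38.3% of all genes.

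Ucp3 and Ucp2, Acot2 and Acot1, and Hadha and Hadhb are neighbouring genes that differed in their change, and their upstream sequences are shown for that reason. In RefSeq (GRCm38.p6) Ucp3 and Ucp2 lie on the same strand of chromosome 7 with starts 20367 bases apart, and Acot2 and Acot1 on the same strand of chromosome 12 with starts 21641 bases apart. Hadha and Hadhb lie on opposite strands of chromosome 5, back to back, with 273 bases between their starts, so that the window shown for Hadhb holds most of the stretch between them. Each window is the 250 bases before the start, 5′ to 3′ on the gene's own strand. Capitals mark AGGTCA, the hexamer that nuclear receptors such as the PPARs and ERRs recognise, and CAGCTG, an E-box of the kind bound by MyoD, on either strand.
Ucp3 (chr7:100472741-100472990, plus strand): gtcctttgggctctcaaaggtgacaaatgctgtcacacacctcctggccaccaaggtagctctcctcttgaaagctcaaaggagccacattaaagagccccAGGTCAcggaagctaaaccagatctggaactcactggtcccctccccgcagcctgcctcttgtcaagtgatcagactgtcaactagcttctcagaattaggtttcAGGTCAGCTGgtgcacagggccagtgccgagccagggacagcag
Ucp2 (chr7:100493108-100493357, plus strand): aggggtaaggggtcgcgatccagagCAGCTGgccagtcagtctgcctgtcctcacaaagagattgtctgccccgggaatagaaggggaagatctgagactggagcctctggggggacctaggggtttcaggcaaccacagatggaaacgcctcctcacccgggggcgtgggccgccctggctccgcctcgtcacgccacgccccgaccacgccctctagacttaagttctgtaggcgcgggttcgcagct
Acot2 (chr12:83987611-83987860, plus strand): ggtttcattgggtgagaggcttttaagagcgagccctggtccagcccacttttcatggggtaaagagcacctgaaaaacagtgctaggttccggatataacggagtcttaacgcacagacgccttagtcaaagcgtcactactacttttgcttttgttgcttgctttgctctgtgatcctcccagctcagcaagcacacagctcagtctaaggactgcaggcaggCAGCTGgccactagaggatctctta
Acot1 (chr12:84009252-84009501, plus strand): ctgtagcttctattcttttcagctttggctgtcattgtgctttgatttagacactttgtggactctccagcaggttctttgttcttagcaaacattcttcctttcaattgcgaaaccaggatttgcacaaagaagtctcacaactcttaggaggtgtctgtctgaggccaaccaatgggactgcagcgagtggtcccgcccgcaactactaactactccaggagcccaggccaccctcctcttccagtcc
Hadhb (chr5:30155003-30155252, plus strand): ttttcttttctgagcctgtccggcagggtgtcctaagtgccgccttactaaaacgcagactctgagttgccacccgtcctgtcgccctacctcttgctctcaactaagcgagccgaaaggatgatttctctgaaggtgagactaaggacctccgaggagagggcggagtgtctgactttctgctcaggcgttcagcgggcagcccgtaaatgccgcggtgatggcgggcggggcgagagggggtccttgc

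The Ucp3 window held AGGTCA 2 times and CAGCTG 1 time, the second AGGTCA overlapping the CAGCTG by its last bases. The Ucp2 and Acot2 windows held CAGCTG 1 time each, and the Acot1 and Hadhb windows held neither. Promoter windows were found for 28 of the 34 genes, 35 windows in all. AGGTCA lay in 8 of the 35 (22.9%), those of Acadm, Acadvl, Acsl6, Cd36, Echs1, Plin2, Plin5 and Ucp3, against 14% of 32851 windows of all genes. CAGCTG lay in 7 (20%), against 13%. The longer ERR form AAGGTCA lay in 2, those of Acadm and Acsl6, against 4.08% of all windows. Neither the direct repeat of AGGTCA with 1 base between the copies (0.0335% of all windows) nor the cAMP response element TGACGTCA (1.55%) was found in a window of the list. These are matches of letters and not measured binding, and AAGGTCA includes AGGTCA.

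Because a constant scaling of an array cancels in the ratio of 2 of its probes, 11 pairs of genes were compared as log2 ratios within each array, by an exact permutation test over 4 against 4 mice (two-sided, smallest possible p = 0.029, adjusted over the 11 pairs). Only the change of a ratio between groups is read, since its size also depends on the probes. In 7 pairs every PCKO ratio lay on 1 side of every WT ratio (adjusted p = 0.045 for each). The pairs were chosen with earlier results of these data known, and the share among other gene pairs was not computed. Of all single genes tested, 29.7% had every PCKO value below every WT value, and 36.1% had every one above. With any 1 of the WT mice left out 0 pairs passed, because 6 pairs then reached the smallest possible p and adjusted to 0.052 over the 11. The ratio of Ucp3 to Ucp2 averaged 1.20 ± 0.25 in PCKO mice and 3.76 ± 0.37 in WT mice (SD, n = 4 each), and that of Acot2 to Acot1 averaged 0.72 ± 0.48 in PCKO mice and -2.62 ± 0.67 in WT mice (SD, n = 4 each). Plin5 to Plin2 changed by -1.92, Lpl to Angptl4 by -1.20 and Cpt1b to Cpt2 by -0.66, so the ratio of the first gene to the second was lower in PCKO mice. Hadha to Hadhb changed by 1.0 and Acadvl to Acadm by 0.89, a higher ratio in PCKO mice.

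The other 4 pairs did not pass. Fabp3 to Fabp4 changed by 0.59 (exact permutation p = 0.057, adjusted p = 0.079). Acsl1 to Acsl6 averaged 5.11 ± 0.21 in PCKO mice and 5.09 ± 0.21 in WT mice (SD, n = 4 each), a change of 0.01. Etfa to Etfb changed by -0.07 and Pnpla2 to Lipe by -0.18.

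**Figure D4:**
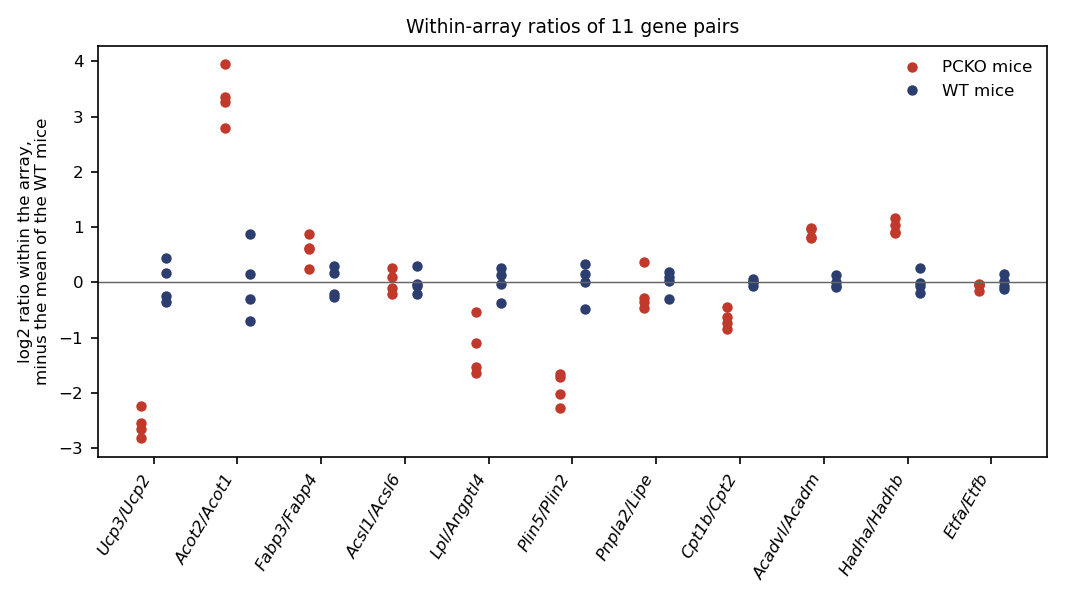
Log2 ratio of the named gene pairs within each array, minus the mean ratio of the 4 WT mice. Red points are the 4 PCKO mice and blue points the 4 WT mice. Ucp3/Ucp2, Lpl/Angptl4, Plin5/Plin2 and Cpt1b/Cpt2 lie below the WT ratios, Acot2/Acot1, Acadvl/Acadm and Hadha/Hadhb above them, and the other 4 pairs overlap.

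Of 11 regulators of these genes 7 (63.6%) were lower and 1 (9.09%) higher, against 32.7% and 38.3% of all genes. Rxrg, the muscle-enriched partner of the PPARs, was at 4.36, 4.29, 4.26 and 4.19 in PCKO mice, against 6.51, 6.47, 6.28 and 6.68 in WT mice (-2.21 ± 0.10, and -2.11 at its other probe). Esrrg, an oestrogen-related receptor of oxidative muscle, differed by -1.76 ± 0.23 (-1.49 at its other probe). Ppargc1a, the coactivator PGC-1alpha, was the riser, at 6.14, 6.37, 6.23 and 6.37 in PCKO mice, against 3.72, 3.80, 3.52 and 3.42 in WT mice (2.67 ± 0.11, adjusted p = 1.4e-07, and 2.84 at its other probe). With spike-in centring 4 of the 11 were lower and 2 higher, against 9.44% and 53.1% of all genes.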

How the data were processed

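Labelled RNA of EDL muscle from 4 PCKO and 4 WT mice was hybridised to 1 slide of 8 arrays in 2 rows, each row with 2 arrays of each group. The scanner files hold spot intensity made by the authors with Feature Extraction (version 10.7.3.1), as read per the file headers, background-subtracted and detrended within the array and not normalized between arrays. The deposited series table holds log2 values of 32622 of the 55681 non-control probes, how made being not given in the sources used here, and served as an alternative. Others were quantile normalization, spike-in centring, normexp background correction, filters on dim probes, the mean of a gene's probes, blocks for replicate number and slide row, each row alone, and each mouse left out. Log2 processed intensity was scaled to each array's 75th percentile, without control spots and outlier spots, spots of 1 probe being averaged. Probes well above background on at least 4 of 8 arrays were tested, at each gene's brightest probe. Accessions were matched to RefSeq (GRCm38.p6), 26582 probes to 1 symbol and 29099 to none, and the array design uses an older build. All 34 genes had a value on every array.

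The PCKO and WT arrays were set against each other in limma (version 3.58.1, R 4.3.3, two-sided, group as the only term, Benjamini-Hochberg over all genes, threshold 0.05). On simulated data with the same 12698 genes that had no missing value, 67, 67 and 66 genes were given changes of 0.5, 1 and 2 log2 units. The fit recovered 37.3%, 83.6% and 100% of them, with 15 false calls among 162, a larger share than the threshold of 0.05. In the data 71.1% of genes were called, and the adjusted cut-off depends on that share. These recovery rates therefore do not describe this comparison. The members, gene lists, pairs and settings were chosen with earlier results of these data known. All members are named, with the 2 largest changes in each direction of each other pathway list.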

Additional observations from a re-analysis of the deposited data

Results flagged for a closer look

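Levels of the 34 genes and of both targeted genes were examined for a mouse far from the other 3 of its group (Dixon's test at the 95% level, 72 groups), and 2 were found, where chance flags about 1 group in 20. Hadh was at 5.11 in WT replicate 2, against 4.85 to 4.88 in the other WT mice. Eci1 was at 5.05 in PCKO replicate 1, against 5.31 to 5.32 in the other PCKO mice.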

How the results depend on the processing

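Across all genes 4170 were lower and 4881 higher, against 1202 lower with spike-in centring and 2165 lower and 3130 higher in the deposited table, which covers fewer genes. Of the fatty acid genes 5 (14.7%) were lower with spike-in centring, against 9.44% of all genes. In the deposited table (27 of 34 listed) 15 (55.6%) were lower and 5 (18.5%) higher, against 28.9% and 41.8% of its genes. Under quantile normalization 6 (17.6%) were higher, against 43.3% of all genes. Leaving out single mice gave 22 to 25 lower and 3 to 3 higher members, 3937 to 4057 lower and 4589 to 4865 higher genes, and 0 to 7 differing pairs. The 0 arose without any of the WT mice, where 6 pairs at the smallest possible p miss the threshold after adjustment. Quantile normalization, added for the pairs after seeing the data, gave 8. Same-numbered mice of both groups deviated together only weakly (r of 0.05 to 0.12, each best with its own number, a hint from the data and not the design); with a replicate block 22 members were lower, Lipe being lost, and 3 higher, and 4168 genes lower and 4790 higher.

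Signs turned as follows; the cause was not tested beyond the construction of each scaling. Spike-in centring gave a member median of 0.054, and 0.47 for Fabp3, 0.21 for Plin2, 0.057 for Lipe, 0.56 for Cpt2, 0.50 for Acadvl, 0.65 for Acadl, 0.22 for Hadha, 0.21 for Echs1, 0.13 for Hadh, 0.45 for Decr1, 0.10 for Etfa, 0.17 for Etfb, 0.63 for Etfdh, 0.052 for Acot1, 0.11 for Acad10, 0.46 for Acad9 and 0.24 for Acot13. Quantile normalization gave 0.26 for Fabp3, 0.11 for Cpt2, 0.30 for Acadvl, 0.16 for Acadl, 0.20 for Decr1, 0.29 for Etfdh and 0.027 for Acot13. The deposited table gave 0.30 for Fabp3, 0.15 for Cpt2, 0.38 for Acadvl, 0.18 for Acadl, 0.22 for Decr1, 0.34 for Etfdh and 0.11 for Acot13. Another background correction (normexp) gave 0.029 for Fabp3, 0.17 for Cpt2, 0.093 for Acadvl, 0.28 for Acadl, 0.015 for Decr1, 0.26 for Etfdh and -0.10 for Ucp2, with 17 members lower and the calls of Plin2, Hadha, Echs1, Hadh, Etfa and Etfb lost. Acadl was 0.0035, 0.04 and 0.051 without PCKO replicate 1, PCKO replicate 4 and WT replicate 4, Etfdh 0.01 without WT replicate 2 and 0.014 without WT replicate 4, and Ucp2 -0.20 without PCKO replicate 3.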

Other observations

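The WT mice differed among themselves in these genes. WT replicate 3 had the lowest WT level in 23 of the 34 genes (67.6%), whereas it was lowest in 20.8% of all genes tested. WT replicates 2 and 4 were highest in 16 (47.1%) and 14 (41.2%) of the 34, against 26.6% and 31.6% of all genes. In Lpl, Plin5, Acaa2, Eci1 and Ucp3 alike WT replicate 3 was the lowest WT mouse. The log2 of its summed adipocyte marker intensities was 8.14, the highest of the 8 mice, and that of its endothelial markers 8.02, also the highest. The part of these cell types in the pattern was not tested. Among PCKO mice no replicate was lowest in more than 11 of the 34 genes. The SD within a group was larger in WT than in PCKO mice for 21 of the 34, with a median SD of 0.12 in PCKO and 0.17 in WT mice. The same was not computed over all genes tested, so the wider WT spread is not shown to be particular to these genes.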
